A study of Mus musculus with 9 samples.

Results

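The 10 genes followed here belong to the early transcriptional response to growth factors and were measured in all 3 groups of cultures: 5 of the Fos and Atf3 branch of AP-1 (Fos, Fosb, Fosl1, Fosl2 and Atf3), 3 of the Jun branch (Jun, Junb and Jund), Egr1 and Myc. Members were taken by mouse gene symbol, from a set chosen with earlier results of these data known. This gave 10 genes on 14 probe-sets, of 18194 named genes on 45101 probe-sets of the Affymetrix MOE430_2.0 array. The study asked whether primary mouse embryo fibroblasts (MEFs) that lack Tgif1, a homeodomain repressor of transcription, enter at an early passage the state that wild type cells reach later. The 3 groups were passage 3 cells without Tgif1 (Tgif1 -/-, called the null), passage 5 wild type cells (P5) and passage 3 wild type cells (P3), each with 3 cultures and 1 array per culture. All were primary cells of C57BL/6J x 129Sv/J embryos of day 13.5, grown in DMEM with 10% fetal bovine serum. The paper describes re-seeding at a fixed density every few days for its growth assays. No growth factor was added as a treatment, and how long after re-seeding or a change of medium the cells were harvested is not stated in the sources read. The null was compared at passage 3 only, and its comparison with P5 differs in both genotype and passage.

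AP-1 is a family of dimers of basic leucine zipper proteins: Fos proteins must pair with a Jun protein to bind DNA, while Jun proteins can also pair with each other. Serum or growth factors acting through the Ras and MAP kinase pathway switch on Fos, Fosb, Jun, Junb, Egr1 and Atf3 within minutes, without new protein synthesis, and the transcripts then decay quickly. Fosl1 and Fosl2 come later and last longer, Jund is present at a rather steady level, and Myc, a basic helix-loop-helix factor, drives ribosome production and entry into the cell cycle. In fibroblasts these genes are classical markers of the return from rest into growth, and several of them also answer to stress.

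The arrays were alike in overall quality. A log2 signal above 4 was reached by 18127 to 18258 probe-sets on each array, the lowest value was 2.23 on each of the 9 arrays, and the 3 prime signal minus the 5 prime signal of Gapdh, a sign of RNA integrity, lay between -0.03 and 0.04 on null arrays, -0.08 and -0.03 on P5 arrays and -0.01 and 0.01 on P3 arrays. Tgif1 itself had log2 signals of 2.48 to 3.21 on the null arrays and of 9.72 to 10.18 on the 6 wild type arrays. Of 9 measured fibroblast markers, 3 (Col1a2, S100a4 and Lum) rose in P5 against P3, where 6.13% of all genes did. The same 3 fell in the null against P5, where 5.33% of all genes did. Lum had log2 signals of 3.00 to 3.14 on null, 5.26 to 5.75 on P5 and 3.03 to 4.43 on P3 arrays, and the summed linear signal of the 9 was 101658 to 113793 on null, 126660 to 132154 on P5 and 107001 to 107222 on P3 arrays. Striated muscle markers separated the groups: their summed linear signal over 10 genes was 2110 to 3314 on null arrays, 208 to 222 on P5 arrays and 620 to 772 on P3 arrays, with Myod1 and Myf5 at 2.23, the lowest log2 value to 2 decimals, on all 9 arrays. Macrophage markers summed to 689 to 1016 on null arrays, 336 to 401 on P5 arrays and 461 to 496 on P3 arrays, with Itgam and Aif1 likewise at 2.23. The sums of 10 epithelium markers were 1324 to 1576 on null, 817 to 962 on P5 and 1444 to 1602 on P3 arrays. Those of 10 endothelium markers, most of them dim, were 107 to 147, 78 to 85 and 99 to 106. The part of all these markers in the results below was not tested, and in RNA from whole cultures fewer cells of a type and less RNA per cell cannot be told apart.

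All 10 genes were well expressed, with a mean log2 signal of at least 6 for the brightest probe-set of each, which represents the gene here. They did not behave as 1 group. Fos, Fosb, Junb, Egr1 and Atf3 rose in wild type P5 against wild type P3 cultures, while Jun, which is also switched on within minutes, and Jund, Fosl1, Fosl2 and Myc did not pass the test. In the null at passage 3 only Fos passed, and it was lower than in wild type P3.

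**Figure D1:**
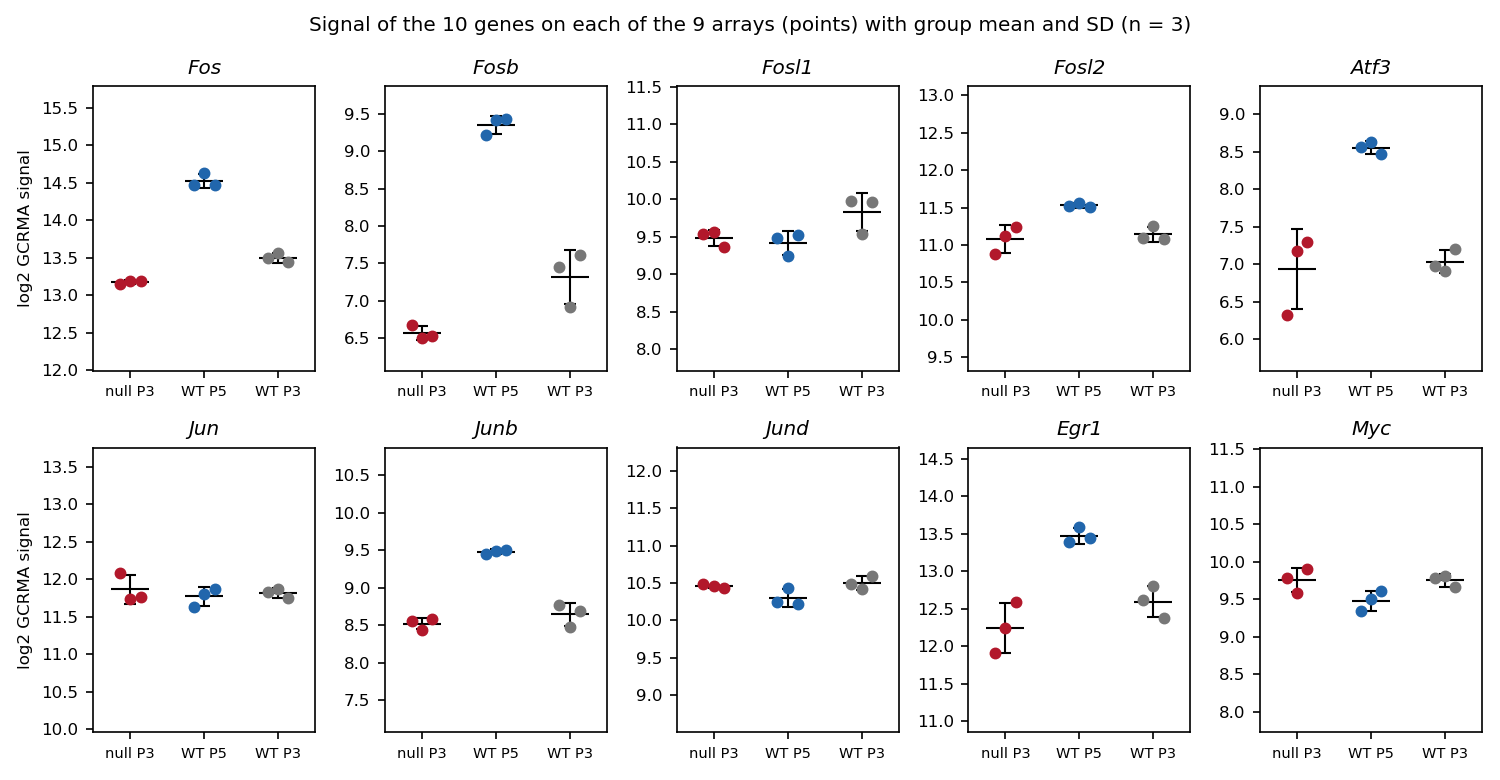
Log2 GCRMA signal (vertical axis, each panel spanning the same range in log2 units) of the 10 genes on the null P3, WT P5 and WT P3 arrays, with points for single arrays and lines for the group mean and SD (n = 3). In the panels of Fos, Fosb, Fosl2, Atf3, Junb and Egr1 the 3 WT P5 arrays lie above the 6 others. In that of Jun the groups overlap, and in that of Myc the WT P5 arrays lie below the WT P3 arrays.

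Fos, the founding member of the family and the partner of Jun in the classical AP-1 dimer, had log2 signals of 13.15, 13.19 and 13.19 in null cultures, 14.46, 14.63 and 14.47 in P5 cultures and 13.49, 13.56 and 13.44 in P3 cultures. The 3 groups did not overlap: each P5 array was above and each null array below the P3 arrays. Fos rose in P5 against P3 by 1.02 on the log2 scale (SE 0.05, adjusted p = 0.000389, limma with Benjamini-Hochberg adjustment over all probe-sets), which is 2.03-fold. It was the single member that passed between the null and P3, where it fell by 0.32 (SE 0.05, adjusted p = 0.0469), to 0.801 of the P3 level. This fall was close to the threshold: it no longer passed without any 1 of the 3 null arrays, the 3 P3 arrays or P5 replicate 1 or 3, with adjusted p of 0.079 to 0.156.

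Fosb, whose full-length protein and a shorter splice form both pair with Jun proteins, showed the largest change of the 10. Its log2 signal was 6.69, 6.51 and 6.53 in null cultures, 9.21, 9.41 and 9.42 in P5 cultures and 7.45, 6.92 and 7.61 in P3 cultures. Again no array of one group reached those of another. Fosb rose 4.07-fold in P5 against P3 (log2 difference 2.02, SE 0.18, adjusted p = 0.00192), a larger rise than in all but 0.192% of genes. The null had a log2 difference of -0.75 from P3 (SE 0.18, adjusted p = 0.138, 95% interval -1.18 to -0.31), which did not pass, although it did without P3 replicate 2, the lowest of its group (-0.95, adjusted p = 0.0244). Against P5 the null was 6.83-fold lower (adjusted p = 0.000849).

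Junb, a Jun protein that activates transcription weakly on its own and can hold back Jun, had log2 signals of 8.55, 8.43 and 8.58 in null, 9.45, 9.49 and 9.50 in P5 and 8.77, 8.48 and 8.68 in P3 cultures. The P5 arrays stood above all others, while the null and P3 arrays overlapped. Junb rose in P5 against P3 by 0.84 (SE 0.08, adjusted p = 0.00229). The null differed from P3 by -0.12 (95% interval -0.31 to 0.07, adjusted p = 0.768).

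Atf3, a stress-induced member of the ATF/CREB family that can pair with Jun proteins and often represses, had log2 signals of 6.32, 7.18 and 7.29 in null, 8.57, 8.63 and 8.46 in P5 and 6.98, 6.91 and 7.21 in P3 cultures. The P5 arrays were again apart, and null replicate 1 was lower than the 8 other arrays. Atf3 rose 2.87-fold in P5 against P3 (log2 difference 1.52, SE 0.26, adjusted p = 0.0172), but the adjusted p was 0.0505 to 0.0706 without P3 replicate 1 or without any 1 P5 array. Between the null and P3 the difference was -0.10 with a wide 95% interval of -0.72 to 0.52 (adjusted p = 1), and it turned to 0.20 without null replicate 1.

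Egr1, a zinc finger factor that is not part of AP-1 but is induced with it through the same kinases, had log2 signals of 11.91, 12.24 and 12.58 in null, 13.38, 13.58 and 13.44 in P5 and 12.61, 12.80 and 12.37 in P3 cultures. Its P5 arrays did not overlap with either other group, whereas null and P3 arrays overlapped. Egr1 rose in P5 against P3 by 0.88 (SE 0.19, adjusted p = 0.0391). This call was lost, at adjusted p of 0.0789 to 0.136, without null replicate 2, P3 replicate 1 or 3, or any 1 P5 array. The null differed from P3 by -0.35 (95% interval -0.80 to 0.11, adjusted p = 0.717).

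RefSeq promoter sequences (build GRCm38.p6) were used for 7 of the 10 genes: Fos, Fosb, Fosl2, Jun, Junb, Jund and Atf3. No sequence of Egr1, Fosl1 or Myc was used, so nothing is said here about their promoters. The sequences of the 4 AP-1 genes that rose in P5 are shown beside that of Jun, which did not pass. Each covers the 150 bases before the start of the gene, on the gene's strand. The letters TGACG, or CGTCA where the motif lies on the other strand, are in capitals; they are the first part of TGACGTCA, the site that CREB and ATF proteins bind. Fos is at chr12:85473740-85473889 (plus strand), Fosb at chr7:19310046-19310195 (minus strand), Junb at chr8:84978749-84978898 (minus strand), Atf3 at chr1:191183334-191183483 (minus strand) and Jun at chr4:95052223-95052372 (minus strand).
Fos: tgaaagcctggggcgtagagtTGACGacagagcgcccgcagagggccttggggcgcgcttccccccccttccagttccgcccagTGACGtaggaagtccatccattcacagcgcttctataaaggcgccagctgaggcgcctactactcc
Fosb: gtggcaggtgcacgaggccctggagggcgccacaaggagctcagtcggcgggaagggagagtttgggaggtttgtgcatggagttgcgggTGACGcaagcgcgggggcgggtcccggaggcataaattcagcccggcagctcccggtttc
Junb: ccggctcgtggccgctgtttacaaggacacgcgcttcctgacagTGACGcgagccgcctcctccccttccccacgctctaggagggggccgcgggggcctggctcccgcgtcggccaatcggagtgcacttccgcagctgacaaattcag
Atf3: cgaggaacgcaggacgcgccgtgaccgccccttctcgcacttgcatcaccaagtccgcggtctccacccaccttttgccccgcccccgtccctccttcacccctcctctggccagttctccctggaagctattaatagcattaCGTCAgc
Jun: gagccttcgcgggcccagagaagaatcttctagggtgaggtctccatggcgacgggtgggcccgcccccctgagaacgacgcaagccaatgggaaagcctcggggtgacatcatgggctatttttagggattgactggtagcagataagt
In the 250 bases before the start, searched on both strands, TGACG began at -129 and -66 in Fos, -60 in Fosb, -106 in Junb and, on the other strand, -7 in Atf3, and these letters were not found in the windows of Jun, Jund and Fosl2. Of 32851 mouse promoters, 17.8% held them. GCGGGGGCG, a motif of Egr proteins, was found in Fosb and Fosl2, against 2.57% of all promoters. TGACGTCA itself (1.55% of promoters), the AP-1 motif TGACTCA (4.46%), the Myc motif CACGTG (6.02%) and the CArG box of serum response factor (1.47%) were in none of the 7 windows. Sequence beyond these 250 bases was not searched, nor was that of Egr1, so sites there would not have been seen. The motif TGACG was picked after the sequences were seen, so its spread over these genes is no test. A match is a description of the sequence only. The stretch of Jun holds tgacatca, close to TGACGTCA, which the search for TGACG does not find and which was not searched for. Jun is therefore not shown to lack a site of this kind.

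Fosl2, also called Fra-2, had log2 signals of 10.88, 11.12 and 11.25 in null, 11.51, 11.56 and 11.51 in P5 and 11.09, 11.25 and 11.08 in P3 cultures. The P5 arrays were above the rest, but the difference of 0.39 from P3 (SE 0.10, 95% interval 0.15 to 0.62) missed the threshold (adjusted p = 0.066). It passed under 5 of the 17 alternative settings tried, at 0.0185 without null replicate 1. The difference of -0.45 between the null and P5 passed (adjusted p = 0.0466), but under only 4 of the 17, and was lost with the replicate block (adjusted p = 0.0911) and with any single array left out other than null replicate 3. A dim second probe-set of Fosl2, with signals of 3.21 to 4.13, went the other way by -0.56 in P5 against P3 (adjusted p = 0.124) and by 0.30 in the null against P5 (adjusted p = 0.511), so the gene is uncertain.

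Fosl1, also called Fra-1, a Fos protein that accumulates under lasting MAP kinase activity, had log2 signals of 9.53, 9.56 and 9.37 in null, 9.48, 9.24 and 9.53 in P5 and 9.98, 9.54 and 9.97 in P3 cultures. P5 lay below P3 without overlap, by -0.41 (95% interval -0.76 to -0.06, adjusted p = 0.179). The null differed from P3 by -0.34 (95% interval -0.69 to 0.01, adjusted p = 0.506). Neither difference passed, and the second probe-set of the gene gave -0.04 and -0.29.

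Jun, a strongly activating partner of the Fos proteins, had log2 signals of 12.08, 11.74 and 11.77 in null, 11.63, 11.81 and 11.87 in P5 and 11.83, 11.87 and 11.75 in P3 cultures. On this probe-set all groups overlapped. The 95% interval of P5 minus P3 was -0.31 to 0.21 and that of null minus P3 was -0.22 to 0.31 (adjusted p = 1 for both), so changes of the size seen in Fos lie outside them. On a second, dimmer probe-set of Jun the signals were 10.25, 9.84 and 9.87 in null, 9.41, 9.65 and 9.73 in P5 and 10.04, 9.79 and 9.79 in P3 cultures. There P5 lay below both other groups without overlap, by -0.28 against P3 (95% interval -0.63 to 0.07, adjusted p = 0.415), and the null lay above P5 by 0.39 (95% interval 0.04 to 0.74, adjusted p = 0.223). Neither difference passed.

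Jund, which in fibroblasts is a steadily expressed Jun protein that slows growth, had 10.48, 10.46 and 10.44 in null, 10.25, 10.44 and 10.22 in P5 and 10.48, 10.42 and 10.60 in P3 cultures. The ranges of null and P3 overlapped and P5 lay slightly lower, by -0.20 (95% interval -0.37 to -0.03, adjusted p = 0.178). A second probe-set for Jund stayed near the lowest value and gives no measurement.

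Myc had log2 signals of 9.78, 9.58 and 9.91 in null, 9.34, 9.50 and 9.60 in P5 and 9.78, 9.81 and 9.66 in P3 cultures. P5 was below P3 without overlap, by -0.27 (95% interval -0.52 to -0.02, adjusted p = 0.223), which did not pass, and the null differed from P3 by 0.00 (95% interval -0.25 to 0.25, adjusted p = 1).

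In counts, 5 of the 10 genes rose and 0 fell in P5 against P3, where 6.13% of all named genes rose, 10.7% of those with a mean log2 signal of at least 6 did, and 7.11% of all named genes fell. At an unadjusted p under 0.05 the count was 9 of 10 in either direction, against 26.5% of all genes and 48.3% of those of that signal. The groups did not overlap for 6 genes that were higher and 2 that were lower in P5, against 26% and 30.1% of genes of that signal. The median difference of the 10 was 0.61, against 0 over all genes. The count was 3 (Fos, Fosb and Junb) without P3 replicate 1 or without any 1 of the P5 arrays, and 3 at the study's own thresholds (unadjusted p under 0.0001 and a log2 difference of at least 0.5), which 1.41% of genes passed upward.

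Between the null and P3, 1 of the 10 genes fell and 0 rose, where 1.07% of all genes and 1.98% of genes with a mean log2 signal of at least 6 fell, and 1.51% of all genes rose. Unadjusted, 2 genes had a p under 0.05, against 15.2% of all genes and 27.2% of those of that signal. Both of these, Fos and Fosb, lay lower without overlap, against 13.8% of genes of that signal. The median of the 10 differences was -0.11, against 0 over all genes. With a single array left out the count was 0 or 1, and it was 0 without any null array, P3 replicate 1 or 3, or P5 replicate 1 or 3. The muscle and macrophage sums above were higher on each null array than on each P3 array, and 6 of 10 muscle markers rose and 0 fell, which was not tested as a part of these differences. Null replicate 1, the array with the lowest Atf3, Egr1 and Fosl2 signals and the highest Jun signal, also had the highest signal of the cardiac actin gene Actc1 (10.19, against 9.41 and 9.26 on the other null arrays).

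Between the null and P5, which share their arrays with the comparisons above, 6 of the 10 genes fell and 0 rose, where 5.33% of all genes and 8.9% of genes with a mean log2 signal of at least 6 fell, and 6.08% of all genes rose. At the study's thresholds 3 of the 10 fell, where 1.42% of genes did. Groups did not overlap for the same 6 genes, against 23% of genes of that signal. These were Fos (-1.34), Fosb (-2.77), Junb (-0.96), Atf3 (-1.62, adjusted p = 0.0158), Egr1 (-1.22, adjusted p = 0.0141) and Fosl2 (-0.45, adjusted p = 0.0466). Jun (0.09), Jund (0.16), Fosl1 (0.07) and Myc (0.28, 95% interval 0.02 to 0.53, adjusted p = 0.23) did not pass. Without P5 replicate 2, 3 genes were called, and without any other single array 4 to 6.

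**Figure D2:**
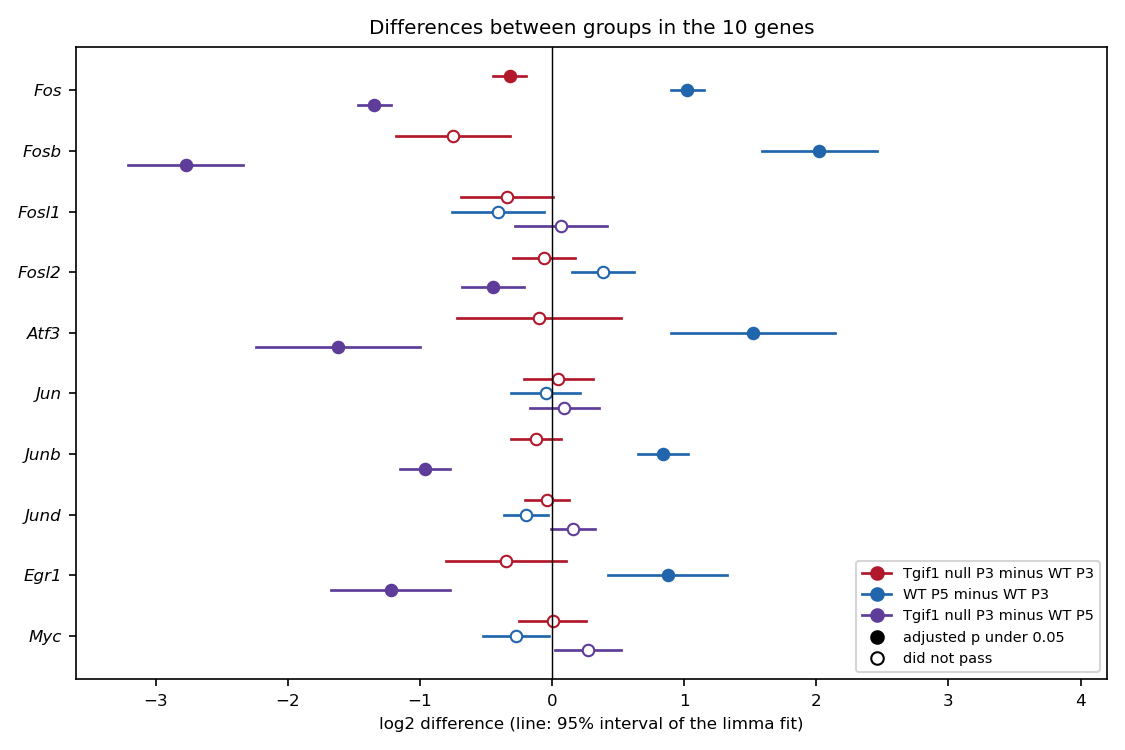
Log2 differences (horizontal axis) of the 10 genes in the 3 comparisons, with lines for the 95% intervals of the limma fit and filled points for an adjusted p under 0.05. Points of WT P5 minus WT P3 lie to the right of 0 for Fos, Fosb, Fosl2, Atf3, Junb and Egr1, where those of the null minus WT P3 lie at or left of 0, with only that of Fos filled.

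The AP-1 list of partners and relatives, which holds the Batf proteins, Jdp2, the small Maf proteins and further ATF and CREB proteins, had 15 measured genes of 17. Of these, 2 rose and 0 fell in P5 against P3 (6.13% of all genes rose). In the null against P3, 0 rose or fell. At an unadjusted p under 0.05 the count was 4, against 15.2% of all genes and 27.2% of those with a mean log2 signal of at least 6. In the null against P5, 1 rose and 1 fell (6.08% and 5.33% of all genes). The genes that rose in P5 were Atf5 (10.96 in P5 and 10.43 in P3, log2 difference 0.53, adjusted p = 0.0476) and Nfe2l2, the Nrf2 factor of the antioxidant response (10.54 and 10.21, 0.33, adjusted p = 0.0279). These calls passed under 6 and 7 of the 17 alternatives. Atf5 differed by 0.59 between the null and P3 (adjusted p = 0.0861), which did not pass, and by 0.06 between the null and P5. Its rise is thus not particular to P5. For Nfe2l2 the null differed from P3 by -0.06. Batf, Batf2 and Batf3, which replace Fos as Jun partners in immune cells, were near the lowest value on all arrays, and Jdp2, a repressor that binds AP-1 sites, differed by -0.01 between P5 and P3 (adjusted p = 1). With a filter on signals above 4, for which no share of all genes is given, 5 rose in P5 and 2 in the null against P3. The count of 2 in P5 was 2 without null replicate 1 and 0 or 1 without any other single array. Of the calls between the null and P5, 1 or both were lost without any single array other than P3 replicate 2 or P5 replicate 3.

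Of 42 other immediate early genes, 14 rose, 2 fell and 26 did not pass in P5 against P3, with a median difference of 0.49. Of all genes 6.13% rose and 7.11% fell, and of those with a mean log2 signal of at least 6, 10.7% and 13.9%. Between the null and P3 none passed by limma (0 of 42) and the median was 0.02. At an unadjusted p under 0.05 the count was 10 of 42, against 15.2% of all genes and 27.2% of genes of that signal. With a filter on signals above 4, which leaves fewer probe-sets to adjust over, 4 rose and 3 fell in the null against P3. No share of all genes is given for that filter. Against P5 the null had 18 genes lower and 2 higher (5.33% and 6.08% of all genes). The 14 became 3 at the study's thresholds, 6 with the replicate block or the robust prior, 4 without P3 replicate 1 and 8 or fewer without any other single wild type array, and the 18 became 8 without P5 replicate 1, 9 without P5 replicate 2, and 10 without P5 replicate 3 or null replicate 2.

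Egr2 and Egr3, relatives of Egr1, rose in P5 too. Egr3 had log2 signals of 4.45, 4.75 and 5.98 in null, 9.02, 8.72 and 8.43 in P5 and 6.82, 6.82 and 6.08 in P3 cultures. No array of one group reached another group. Egr3 rose by 2.15 in P5 (SE 0.44, adjusted p = 0.0338), which passed under 8 of the 17 alternatives and was 1.07 with the mean of its probe-sets. The null differed from P3 by -1.52 (SE 0.44, adjusted p = 0.236), which did not pass. Egr2, a factor of Schwann cells and T cells that binds the same motif, rose by 0.85 (adjusted p = 0.0387, passing under 9 of the 17), whereas Egr4 was at the lowest value on all arrays.

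Feedback inhibitors were among the genes that rose. Zfp36, whose protein binds AU-rich elements and speeds the decay of many early transcripts, had log2 signals of 9.93, 9.75 and 9.66 in null, 11.16, 11.41 and 11.21 in P5 and 9.83, 9.35 and 9.77 in P3 cultures. The P5 arrays were apart and the others overlapped, with a rise of 1.61 in P5 against P3 (SE 0.15, adjusted p = 0.00216). Dusp1, a nuclear phosphatase of MAP kinases, rose by 1.23 (SE 0.11, adjusted p = 0.00216), but Dusp4, another such phosphatase, fell by 0.81 in P5 (SE 0.07, adjusted p = 0.00165). The orphan nuclear receptor Nr4a2 rose by 0.85 (adjusted p = 0.0292, passing under 9 of the 17).

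**Figure D3:**
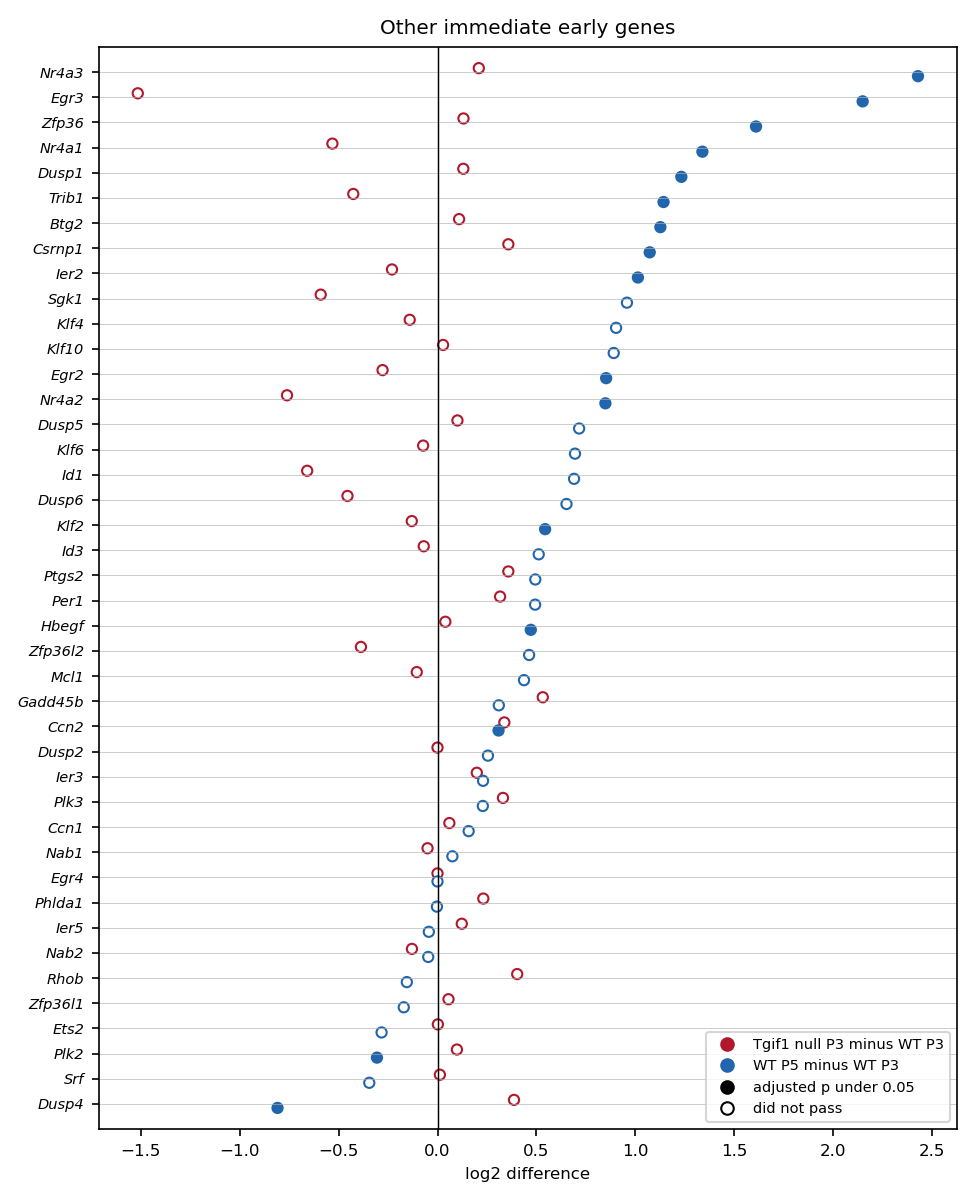
Log2 differences (horizontal axis) of 42 other immediate early genes in the null minus WT P3 and WT P5 minus WT P3, ordered by the second, with filled points for an adjusted p under 0.05. Of the points of WT P5 minus WT P3, 14 are filled to the right of 0 and 2 (Plk2 and Dusp4) to the left, and none of those of the null is filled.

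Of 27 growth factor receptors and kinases upstream of these genes, 21 were measured. In P5 against P3, 2 rose and 0 fell (6.13% of all genes rose and 7.11% fell). In the null against P3, 0 rose and 1 fell (1.51% and 1.07% of all genes). At an unadjusted p under 0.05 the count was 9 of 21 in each comparison, against 26.5% of all genes for P5 and 15.2% for the null. Among genes with a mean log2 signal of at least 6 these shares were 48.3% and 27.2%. The 2 that rose in P5 became 0 without any 1 wild type array or null replicate 2. Rps6ka3 (Rsk2), a kinase of the growth factor pathway that phosphorylates CREB and Fos protein, had log2 signals of 9.07, 9.19 and 9.08 in null, 9.84, 9.80 and 9.79 in P5 and 9.94, 9.92 and 10.00 in P3 cultures. The null arrays were below the 6 wild type arrays. Rps6ka3 fell by 0.84 in the null against P3 (SE 0.04, adjusted p = 0.00109) and by 0.70 against P5 (adjusted p = 0.000536). Both passed under all 17 alternatives, with the mean of its probe-sets at -0.18 and -0.10. Araf, a Raf kinase, rose by 0.43 in P5 against P3 (adjusted p = 0.0468, passing under 8 of the 17), and the receptors Pdgfrb (0.47 in the null against P3, adjusted p = 0.0562) and Fgfr1 (-0.54 in P5 against P3, adjusted p = 0.0623) did not pass.

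Around Myc, the signal of its antagonist Mxd4 differed where that of Myc did not pass. Mxd4, a Max partner that represses Myc targets, had log2 signals of 9.09, 9.13 and 9.09 in null, 9.66, 9.67 and 9.65 in P5 and 8.61, 8.59 and 8.77 in P3 cultures. The groups did not overlap, with null between P5 and P3. Mxd4 rose 2.01-fold in P5 against P3 (SE 0.05 on the log2 scale, adjusted p = 0.000323) and by 0.45 in the null against P3 (adjusted p = 0.0145). It was the single call among 11 genes of the Myc network in each of these comparisons, where 6.13% and 1.51% of all genes rose. The rise in the null passed under 11 of the 17 alternatives. It was lost with the replicate block, the robust prior (adjusted p = 0.263), the 6 arrays alone and the mean of its probe-sets (0.25), and without null replicate 2 or P3 replicate 1. Mycn, the Myc gene of embryonic and neural cells, was dim, with a mean log2 signal of 4.88 in null cultures. It was 3.42 on each P5 array and 3.85 on each P3 array. The null differed from P3 by 1.03 (adjusted p = 0.131), which did not pass. Against P5 Mycn was higher in the null by 1.47 (adjusted p = 0.0184), which passed under 10 of 16 alternatives. Of the 11 genes, 1 rose (Mycn) and 1 fell (Mxd4, -0.56, adjusted p = 0.00203) in the null against P5 (6.08% and 5.33% of all genes).

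Of 26 genes known as Myc targets, 1 rose and 11 fell in P5 against P3, with a median difference of -0.32. Of all genes 6.13% rose and 7.11% fell, and of those with a mean log2 signal of at least 6, 10.7% and 13.9%. In the null against P3, 0 rose and 1 fell (1.07% of all genes fell). Nop56, a nucleolar protein of ribosome assembly, fell by 0.77 in P5 (SE 0.07, adjusted p = 0.00193), and Odc1, the first enzyme of polyamine synthesis, by 0.31 (SE 0.02, adjusted p = 0.00115). Shmt1, of one-carbon metabolism, was the gene that fell in the null (-0.66, adjusted p = 0.0251) and it also fell by 0.77 in P5 (adjusted p = 0.00458). The call in the null passed under 6 of the 17 alternatives and was lost with the replicate block and the robust prior, whereas the call in P5 passed under all 17. Ccnd2, a G1 cyclin, rose by 0.56 in P5 (adjusted p = 0.00404). The 11 became 6 without P5 replicate 1 and 7 without P5 replicate 2 or P3 replicate 1 or 3. For the null against P5, 8 of the 26 were higher and 2 lower (6.08% and 5.33% of all genes), with a median difference of 0.19. The 8 became 0 with the robust prior and at the study's thresholds and 3 with the replicate block.

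Of 17 measured genes of 20 known as AP-1 targets, 4 rose and 0 fell in P5 against P3 (6.13% of all genes rose and 7.11% fell). In the null against P3, 1 rose and 2 fell (1.51% and 1.07% of all genes). In the null against P5, 1 rose and 5 fell (6.08% and 5.33% of all genes). The gene that rose in both was Mmp10, which was dim, with mean log2 signals of 3.83 in null, 3.15 in P5 and 3.28 in P3 cultures. Its difference from P3 (0.56, adjusted p = 0.0419) passed under 3 of 15 alternatives. That from P5 (0.68, adjusted p = 0.0075) passed under all 15. Il6, the inflammatory cytokine, had log2 signals of 6.47, 6.72 and 7.14 in null, 9.85, 9.83 and 9.61 in P5 and 7.73, 7.61 and 7.72 in P3 cultures. The order was that of Fosb, with P5 above P3 and the null below it. Il6 rose by 2.08 in P5 (SE 0.17, adjusted p = 0.00144), and the null differed from P3 by -0.91 (SE 0.17, adjusted p = 0.0671), which did not pass. Hmox1, the haem-degrading enzyme, rose by 1.22 in P5 (adjusted p = 0.000389), while Ezr, a membrane to actin linker, fell by 0.84 in the null against P3 (adjusted p = 0.0296, passing under 6 of the 17). The 4 that rose in P5 became 2 without P3 replicate 1 or 3 or any 1 P5 array, and the 5 that fell in the null against P5 became 2 without P5 replicate 2 and 3 without P5 replicate 1 or 3 or P3 replicate 1. The calls between the null and P3 fell to 0 or 1 in each direction with any array left out. The list shares Hbegf with the other immediate early genes.

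The higher early transcripts of P5 stood beside lower signals of genes of dividing cells. Of 24 measured genes of 25 for proliferation, 0 rose and 22 fell in P5 against P3. Of all genes 7.11% fell, and of those with a mean log2 signal of at least 6, 13.9%. In the null against P3, 5 fell (1.07% of all genes and 1.98% of genes of that signal). At an unadjusted p under 0.05 in either direction the count was 18 of the 24, against 15.2% and 27.2%. The null was higher than P5 for 14 (6.08% of all genes and 11.5% of genes of that signal). Mcm5, of the replicative helicase, had log2 signals of 11.23, 11.17 and 11.19 in null, 10.56, 10.59 and 10.63 in P5 and 11.76, 11.65 and 11.84 in P3 cultures. The groups did not overlap and the null lay between the wild type groups, whereas for Fos and Fosb it lay below both. Mcm5 fell by 1.16 in P5 (SE 0.05, adjusted p = 0.000219) and by 0.55 in the null against P3 (adjusted p = 0.00821). The 5 genes that fell in the null became 0 with the robust prior, 1 with the replicate block, 2 at the study's thresholds, 12 with a filter on signals above 6, 1 without P3 replicate 1, 2 without null replicate 2 or P5 replicate 1, and 3 without null replicate 3, P3 replicate 3 or P5 replicate 2. The 14 became 1 at the study's thresholds, 5 with the robust prior, 8 with the block, 7 without P5 replicate 2, 8 without P5 replicate 1 and 9 without null replicate 2 or 3.

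**Figure D4:**
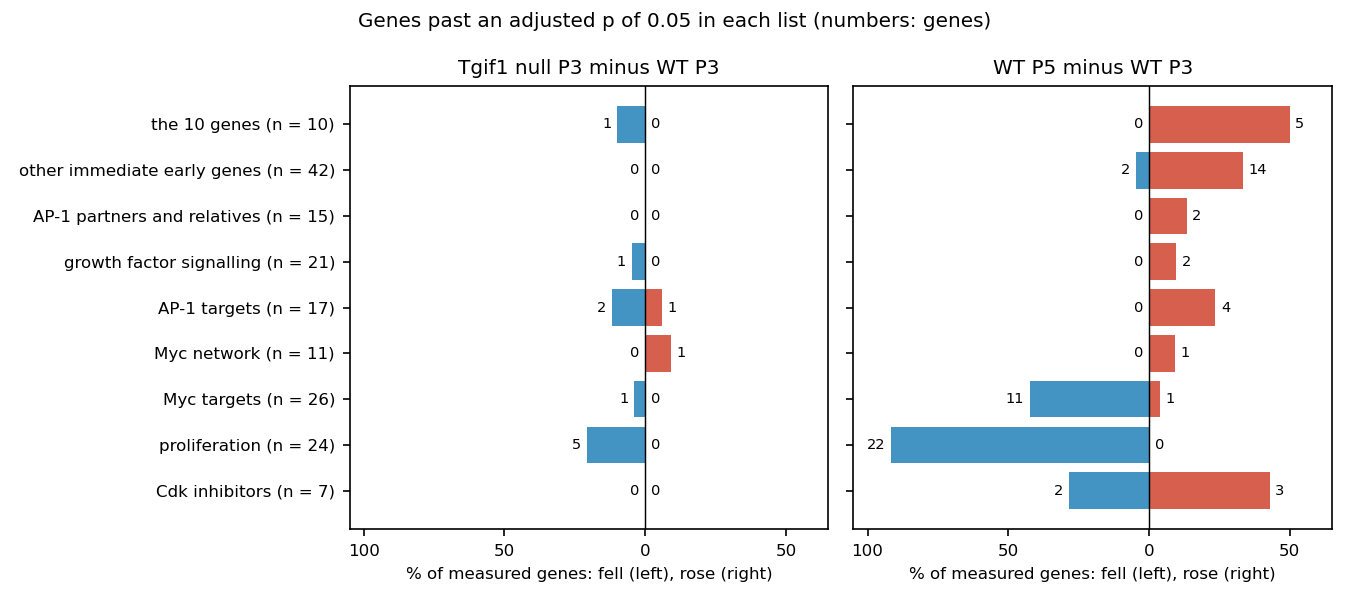
Percentage of the measured genes of each list (rows) that passed an adjusted p of 0.05, with those that fell left of 0 and those that rose right of 0, for the null minus WT P3 (left panel) and WT P5 minus WT P3 (right panel), and the number of genes beside each bar. In the right panel 5 of the 10 genes and 14 of 42 other immediate early genes rose while 22 of 24 proliferation genes fell, and in the left panel none of the lists drawn has more than 5 genes past the threshold in either direction.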

How the data were processed

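The 9 arrays were used, 1 per culture, each from an independent culture according to the study's methods; p-values measure the spread between these cultures. The deposited values are log2 signals that the authors made with GCRMA, whose version is not given in the sources read; it corrects background by probe sequence, brings the arrays to 1 distribution and summarises the probes; floor values hide changes of dim genes. Values were used as deposited. Symbols came from the platform annotation, updated by gene number through a mouse gene table of GRCm38.p6 (1 symbol for 34958 probe-sets, several for 932, 9211 not named here). A gene is represented by its probe-set of highest mean.

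In R 4.3.3 with limma 3.58.1, a model with 1 mean per group was fitted over all 9 arrays at the empirical Bayes defaults, and p-values were adjusted by Benjamini-Hochberg over 45101 probe-sets, at 0.05. Intervals are unadjusted 95% intervals. On simulated data, 65 of 100 probe-sets raised by 1 log2 unit and 94 of 100 raised by 2 were called for P5 against P3, with 12 of 44901 unchanged ones. For the null against P3 the counts were 64, 93 and 13. The members and lists were chosen with earlier results of these data known. Named are all members and, of each list, up to 4 genes with the smallest p and close relatives of members. Plk2 was named after its values were seen. List genes not matched to a probe-set were not analysed here. The alternatives were a filter on low signals, another prior, renormalization, 2 groups alone, a replicate block, the mean of probe-sets, the study's thresholds and each array left out.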

Additional observations from a re-analysis of the deposited data

How the results depend on the processing

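Fos, Fosb and Junb passed in P5 against P3 and in the null against P5 under all 17 alternatives, and Atf3, Egr1 and Fosl2 did not under all. With the 10 genes counted, P5 against P3 gave 3 genes, all of them higher, with the replicate number as a block and at the study's thresholds, in place of 5, and 3 to 6 with an array left out. A filter on signals above 4 or above 6 added Fosl2 as a higher and Fosl1 as a lower gene, and with an array left out 0 to 1 lower genes were called. The null against P3 gave 2 lower genes under either filter, 0 with a trended robust prior, with the 6 arrays of both groups alone, with the block and at the study's thresholds, in place of 1, and 0 to 1 with an array left out. The null against P5 gave 3 lower genes with the 6 arrays alone, with the block and at the study's thresholds, in place of 6, and 3 to 6 with an array left out. The labels do not say whether same-numbered cultures are related, and the numbers were not taken as pairs: same-numbered deviations correlated at 0.40, 0.20 and -0.49 for the null and P3 and at -0.05, 0.16 and 0.14 for P5 and P3.

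Among the members and named list genes, signs turned only for differences that did not pass. With the mean of a gene's probe-sets, Fosl1 was -0.0871 in the null against P5 and Fosl2 -0.0868 in P5 against P3, and with median centring Myc was -0.00825 in the null against P3. With an array left out, the null minus P5 ranged from -0.0183 to 0.13 for Fosl1 and -0.0169 to 0.156 for Jun, P5 minus P3 from -0.0978 to 0.0229 for Jun, and the null minus P3 from -0.14 to 0.0434 for Fosl2, -0.0637 to 0.109 for Jun, -0.0808 to 0.00864 for Jund, -0.28 to 0.20 for Atf3 and -0.0715 to 0.0911 for Myc. The other immediate early genes that rose in P5 numbered 6 with the block or the robust prior, 3 at the study's thresholds and 25 with the filter above 4, in place of 14. For proliferation genes that fell the lowest was 11 of the 22, and for Myc targets 2 of the 11, both at the study's thresholds. These list counts under other settings were added after seeing the data. The causes were not tested. The 3 arrays per group limit the precision.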

Other observations

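Of 7 Cdk inhibitors, 3 rose and 2 fell in P5 against P3 (6.13% of all genes rose and 7.11% fell). None passed in the null against P3 (0 of 7 by limma). At an unadjusted p under 0.05 the count was 5, against 15.2% of all genes and 27.2% of those with a mean log2 signal of at least 6. Cdkn2a, the Ink4a/Arf locus that restrains the cell cycle in ageing cultures, had log2 signals of 9.53, 9.68 and 9.80 in null, 11.66, 11.71 and 11.61 in P5 and 9.77, 9.56 and 9.85 in P3 cultures. The P5 arrays stood apart and the others overlapped, as for Junb. Cdkn2a rose by 1.94 in P5 (SE 0.09, adjusted p = 0.000349) and Cdkn2c by 0.44 (adjusted p = 0.0088), while Cdkn1c, an imprinted inhibitor of the embryo, fell by 2.27 (SE 0.16, adjusted p = 0.000972) and Cdkn2d by 0.61 (adjusted p = 0.0154).

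Among 1329 genes with a mean log2 signal of at least 6 and a span of at least 1, the profiles most like those of the members over the 9 arrays were, as a description with the arrays shared and the P5 group apart, Lurap1l (r = 0.994), Pdcd4 (0.991) and Mgmt (0.990) for Fos, Npdc1 (0.986), Dbp (0.985) and Fam20c (0.984) for Fosb, and Ifi27 (0.984), Cdkn2a (0.983) and Ppbp (0.983) for Junb. For Atf3 they were Cavin2 (0.995), Smad6 (0.989) and Fzd5 (0.987), and for Egr1 Dsel (0.992), Nr1d2 (0.992) and Sec22a (0.989).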
